A study of Mus musculus with 9 samples.

Results

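The p53 stress pathway was examined in D2.0R cells through 10 genes: Trp53, which encodes p53, and Mdm2, Ccng1, Sesn1, Sesn2, Trp53inp1, Gadd45a, Gadd45b, Btg2 and Zmat3. The genes were taken by name from a list of p53, its main inhibitor and its targets of growth arrest and metabolism, and all 10 were found among the 23309 gene symbols of the RNA sequencing files. D2.0R is a mouse mammary tumour cell line that derives from a hyperplastic alveolar nodule and stays dormant for a long time at the metastatic site. The cells were cultured in 3D on basement membrane extract (BME), on which they remain quiescent, for 1 day or 5 days, or for 5 days on BME with type I collagen (BME + COL), which induces their proliferation. All cultures were fed low glucose medium with low serum and received no drug and no gene transfer, and each of the 3 groups held 3 biological replicates (a, b and c) of this 1 line. The question for these genes was whether the dormant cells differ from the proliferating cells at day 5, and from the same cells at day 1.

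p53 is a transcription factor that is held at a low protein level by MDM2, a ubiquitin ligase that binds it and marks it for degradation. DNA damage, oncogene activity or nutrient stress frees p53 from MDM2, and p53 then activates genes that stop the cell cycle, repair DNA, limit growth signalling or kill the cell. Mdm2 is itself one of these targets and closes a negative feedback loop. Most control of p53 acts on the protein, so the level of Trp53 mRNA is no measure of p53 activity. The paper on these data does not state the p53 genotype of D2.0R, and p53 protein was not measured in these data. Several of its targets also answer to other factors: the FOXO factors act on Sesn1 and Gadd45a, and ATF4 on Sesn2 and Gadd45a.

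The genome was searched within a window of 2000 bases on either side of each annotated start. A full p53 site (a pair of half-sites 0 to 13 bases apart, on either strand) was found near 2 of the 10 genes. Each half-site had to match RRRCWWGYYY exactly (R is A or G, W is A or T, Y is C or T). Sites with a mismatch were not searched for, so a gene without a match here can still have a p53 site. Such a site was present in 1.18% of 25932 windows over all genes, and one with adjoining half-sites in 0.089%. These 2 sites are shown because they are the full matches among the 10 genes, in NCBIM37 (mm9) and on the strand of the gene, with the half-sites in capitals and any spacer in lower case. The first lay at -1329 to -1309 from the start of Trp53inp1, outside any annotated gene, and the second in intron 1 of Zmat3, at 1315 to 1334 from its start.
Trp53inp1, chr4:11082259-11082279, + strand: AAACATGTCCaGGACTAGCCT
Zmat3, chr3:32263253-32263272, - strand: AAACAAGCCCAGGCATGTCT

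A single p53 half-site lay between 250 bases before and 50 bases after the start in Ccng1, Gadd45a, Mdm2, Trp53, Trp53inp1 and the downstream start of Sesn1, and in 7.413% of 25956 promoters of that length. In the same windows the FOXO core GTAAACA (3.071% of promoters, both strands) was present at Mdm2 and at the upstream start of Sesn1. The E-box CACGTG (7.698%) was present at Gadd45b, Trp53 and Trp53inp1, and the ATF4 composite element TGATGNAAT (0.975%) at none of the 10 genes. These matches describe the letters in the window, and no binding was measured. The 250 bases before the start of the 2 genes that changed most are given with the half-site and, in Trp53inp1, the E-box in capitals. GENCODE M1 starts both genes somewhat further upstream, so the last bases of each run can belong to a first exon there.
Trp53inp1, chr4:11083338-11083587, + strand: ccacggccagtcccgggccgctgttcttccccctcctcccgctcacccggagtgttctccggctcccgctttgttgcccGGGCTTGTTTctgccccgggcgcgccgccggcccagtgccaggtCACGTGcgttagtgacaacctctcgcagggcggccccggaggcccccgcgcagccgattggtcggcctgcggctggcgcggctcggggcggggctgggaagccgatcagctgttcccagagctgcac
Gadd45a, chr6:66987402-66987651, - strand: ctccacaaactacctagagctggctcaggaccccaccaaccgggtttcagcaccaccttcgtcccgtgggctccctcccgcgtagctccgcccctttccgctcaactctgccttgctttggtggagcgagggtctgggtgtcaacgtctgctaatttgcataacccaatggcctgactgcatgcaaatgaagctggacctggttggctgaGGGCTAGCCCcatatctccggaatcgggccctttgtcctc

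The libraries held 7.209 to 9.368 gigabases over annotated transcripts, estimated from the mean read depth and length of each transcript. Expression is given as FPKM (fragments scaled by transcript length and by the mapped fragments of the library), summed over the transcripts of a gene. The luminal keratins Krt8 and Krt18 reached 1324.0 and 1088.0 FPKM, and the basal keratin Krt5 stayed under 1 FPKM in every library. In the same list of 7 epithelial and mammary tumour markers, the basal keratin Krt14 reached 24.41 FPKM, Vim 1293.0, Cdh1 37.96 and Epcam 1.59. Of the markers of other cell types, 5 of 8 fibroblast, 5 of 6 endothelial and 6 of 8 haematopoietic genes were under 1 FPKM in every library. Some libraries stood apart: in BME day 5 replicate b the median gene lay 0.16 below its group mean on the log2 scale (-0.163, against 0.083 and 0.08 in a and c), and BME day 1 replicate c stood away from a and b in Btg2, Sesn2, Gadd45a, Gadd45b and Trp53inp1. In bulk libraries, fewer cells that express a gene and less of its RNA per cell cannot be told apart.

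Dormant cells at day 5 expressed Gadd45a 7.142-fold and Trp53inp1 26.82-fold above proliferating cells, and both genes were lower in BME + COL day 5 than in BME day 1. Trp53 and Sesn1 were modestly higher in BME day 5 than in BME + COL, by 1.202-fold and 1.322-fold. Gadd45b went the other way and was 1.557-fold higher in BME + COL. Mdm2 fell on BME from day 1 to day 5, by 0.43 on the log2 scale. Fold changes and log2 changes come from limma on log2(FPKM + 0.1), a scale that understates the change of genes with low values.

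**Figure D1:**
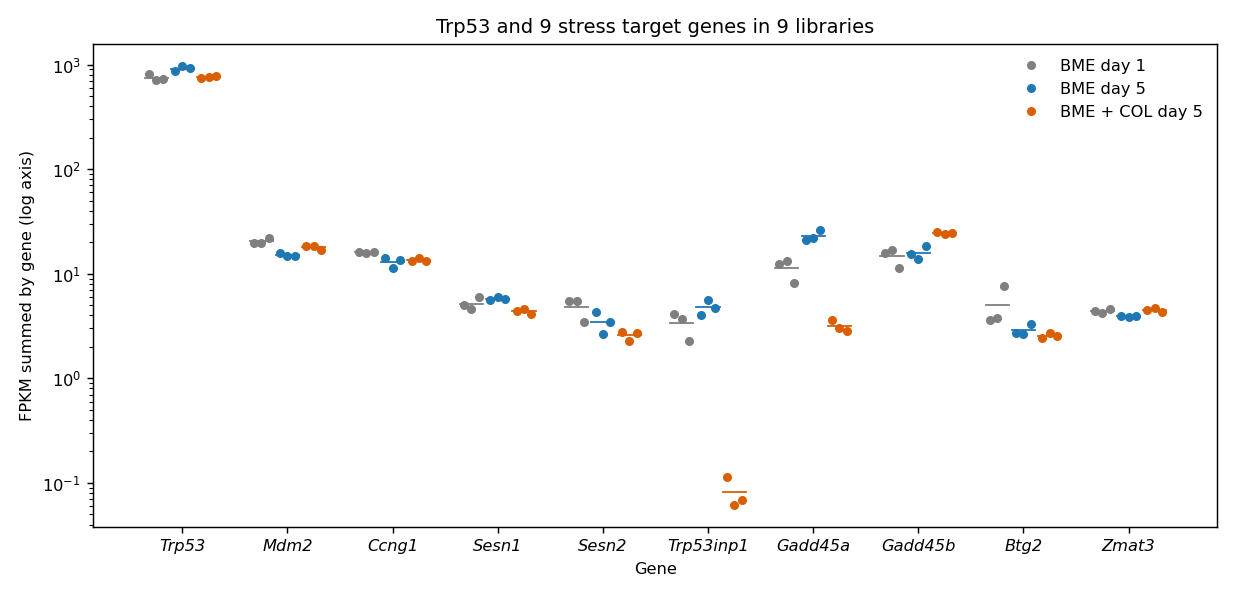
FPKM summed by gene (log axis) for the 10 genes in each of the 9 libraries, with 3 points and a line at the mean for each group. Trp53 lies between 707.6 and 969.9 FPKM, all other values lie at or under 26.25 FPKM, and the BME + COL points of Gadd45a and Trp53inp1 lie below all other points of the same gene.

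Trp53 (chr11:69393861-69405375, + strand, 11 exons) was among the most abundant mRNAs of these cells. Its mean over the 9 libraries was 808.4 FPKM, rank 63 of 23309 gene symbols, whereas the other 9 genes had means from 2.735 to 18.41 FPKM and ranks from 3355 to 9076. In BME day 1 the level was 811.7, 707.6 and 727.5 FPKM in replicates a, b and c. In BME day 5 it was 859.6, 969.9 and 917.0 FPKM. In BME + COL day 5 it was 746.1, 761.5 and 774.7 FPKM. Every BME day 5 library was above every library of the other groups, while the range in BME + COL lay within that of BME day 1. Trp53 was higher in BME day 5 than in BME + COL (0.27 ± 0.09 SE on the log2 scale, limma adjusted p = 0.021) and than in BME day 1 (0.29 ± 0.09, adjusted p = 0.0364). BME + COL and BME day 1 did not differ by the test (0.03, 95% interval -0.175 to 0.225, adjusted p = 0.818), but the difference was -0.20 (adjusted p = 0.153) with TPM and -0.37 (adjusted p = 0.035) with quantile normalization. The day 5 calls are narrow: without the filter on low values the adjusted p was 0.123 between the matrices and 0.166 between the days, and leaving out any 1 BME + COL library gave 0.0549 to 0.0799 for the first. The call between the days was lost in 10 alternatives, among them the replicate block (adjusted p = 0.0648) and leaving out any 1 BME day 1 library (0.0514 to 0.128). A pseudogene named Trp53-ps is annotated at chr17:54559380-54559520, a short stretch beside the 1772 and 1868 nt of the Trp53 transcripts. Reads shared with it cannot be separated in these files.

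The files hold 2 transcripts of Trp53 that differ by 96 bases, present in NM_001127233 and absent from NM_011640 (chr11:69404756-69404851). The first 30 of these bases are shown because they tell the transcripts apart, and 2 transcripts of GENCODE M1 have annotated coding sequence there.
Trp53 segment, chr11:69404756-69404785, + strand: cctccagcctagagccttccaagccttgat
NM_011640 made up 87.7% to 89.9% of the gene in all 9 libraries. It measured 668.0 ± 52.4 FPKM in BME day 1, 817.0 ± 45.0 in BME day 5 and 670.0 ± 13.9 in BME + COL (SD, n = 3 each). NM_001127233 measured 81.2 ± 8.94, 98.8 ± 10.4 and 90.5 ± 2.92 FPKM in the same order, and its range in BME + COL met or reached that of both BME groups. The share of NM_001127233 was 10.1% to 12.2% in BME day 1, 10.4% to 11.4% in BME day 5 and 11.5% to 12.3% in BME + COL.

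The genes whose pattern was most like that of Trp53 were Mpv17l2 (Pearson r = 0.96), Ngly1 (0.951), Cdc42ep2 (0.947), Nme3 (0.945) and Sil1 (0.939). The measure was the correlation of log2(FPKM + 0.1) over the 9 libraries among the 7630 genes that averaged 5 FPKM or more. These are the 5 highest values of many, over points that share 3 groups, and are a description. Among the 10 genes, Gadd45a and Trp53inp1 had r = 0.957 over the same libraries, Trp53 and Mdm2 -0.856, and Gadd45a and Gadd45b -0.678.

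Mdm2 (chr10:117125961-117147772, - strand, 12 exons), the inhibitor and target of p53, measured 19.59, 19.73 and 22.13 FPKM in BME day 1. It measured 15.89, 14.71 and 14.91 FPKM in BME day 5. It measured 18.42, 18.34 and 16.69 FPKM in BME + COL day 5. The 3 groups did not overlap, with BME day 5 lowest and BME day 1 highest, the reverse of Trp53 for the day 5 BME cultures. The fall on BME from day 1 to day 5 (-0.43 ± 0.08, limma adjusted p = 0.00528) kept its call in every alternative tried. The difference between the matrices at day 5 was smaller (-0.23 ± 0.08, adjusted p = 0.0223), lay close to the median of all genes (-0.182) and turned to 0.11 (adjusted p = 0.229) with TPM and 0.03 (adjusted p = 0.695) with quantile normalization. BME + COL was also below BME day 1 (-0.20 ± 0.08, adjusted p = 0.0463), a call lost without BME day 1 replicate c (-0.14, adjusted p = 0.133) and in 11 other alternatives.

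A ratio of 2 genes within a library does not depend on how libraries are scaled. Per FPKM of Trp53 there was 0.0241, 0.0279 and 0.0304 FPKM of Mdm2 in BME day 1. The ratio was 0.0185, 0.0152 and 0.0163 in BME day 5, and 0.0247, 0.0241 and 0.0215 in BME + COL. Every BME day 5 library was below all 6 others. The ratio was 1.41-fold lower in BME than in BME + COL day 5 and 1.65-fold lower than in BME day 1, with p = 0.1 for each in an exact two-sided permutation test, the smallest p that 3 against 3 libraries allow, and an adjusted p of 0.18 over the 9 ratio tests. BME + COL and BME day 1 overlapped (p = 0.2 in the same exact test, adjusted p = 0.3).

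Gadd45a (chr6:66985090-66987401, - strand, 4 exons) encodes a small acidic protein that binds PCNA and CDK1 and acts in the G2 checkpoint and in DNA repair. Its level was 12.33, 13.31 and 8.121 FPKM in BME day 1, with replicate c lowest. It was 21.13, 21.94 and 26.25 FPKM in BME day 5. It was 3.611, 3.026 and 2.817 FPKM in BME + COL day 5. The 3 groups were fully separate in the order BME day 5, BME day 1, BME + COL day 5. BME day 5 was above BME + COL by 2.84 ± 0.18 (limma adjusted p = 1.14e-06) and above BME day 1 by 1.06 ± 0.18 (adjusted p = 0.00398). BME + COL was below BME day 1 by -1.78 ± 0.18 (adjusted p = 2.99e-05). All 3 calls held in every alternative tried. Gadd45a overlaps the gene E230016M11Rik on the opposite strand by 238 bases, and the strand setting of the quantification is not given in the sources used here.

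Gadd45b (chr10:80392836-80394949, + strand, 4 exons) encodes a close relative that acts in stress kinase signalling. It measured 15.82, 16.99 and 11.35 FPKM in BME day 1. It measured 15.38, 13.86 and 18.41 FPKM in BME day 5. It measured 25.19, 23.98 and 24.69 FPKM in BME + COL day 5. The BME + COL libraries were above all 6 others, while the BME groups overlapped. Gadd45b was higher in BME + COL than in BME day 1 (0.76 ± 0.15, limma adjusted p = 0.0018), which held in every alternative, and lower in BME day 5 than in BME + COL (-0.64 ± 0.15, adjusted p = 0.00367). The second call was lost with TPM (-0.30, adjusted p = 0.0949) and with quantile normalization (-0.35, adjusted p = 0.083). BME day 5 and day 1 did not differ by the test (0.12, 95% interval -0.222 to 0.463, adjusted p = 0.548).

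The 2 Gadd45 genes moved in opposite directions between the matrices. The ratio of Gadd45a to Gadd45b was 0.78, 0.784 and 0.716 in BME day 1, 1.37, 1.58 and 1.43 in BME day 5, and 0.143, 0.126 and 0.114 in BME + COL. It was 11.5-fold higher in BME than in BME + COL day 5, 1.92-fold higher in BME day 5 than at day 1, and 5.96-fold lower in BME + COL than in BME day 1. No libraries overlapped, and each exact two-sided permutation p was 0.1, the smallest possible (adjusted p = 0.18). The values of BME day 1 replicate c for the 2 genes were both low, and its ratio lay closer to those of a and b than the level of either gene did.

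**Figure D2:**
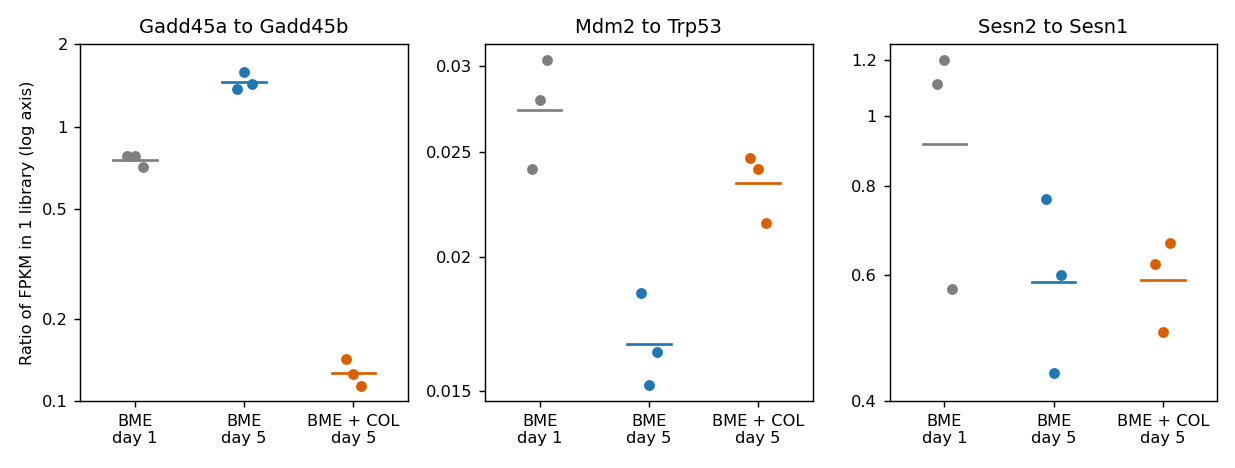
Within-library ratios of FPKM (log axes, a different range in each panel) for Gadd45a to Gadd45b, Mdm2 to Trp53 and Sesn2 to Sesn1, with a point for each library and a line at the geometric mean of each group. The Gadd45 ratio separates all 3 groups, from 0.114 to 1.58, the Mdm2 to Trp53 ratio is lowest in BME day 5, and the sestrin ratio overlaps between the groups.

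Trp53inp1 (chr4:11083588-11101524, + strand) encodes a nuclear stress protein that promotes p53-dependent arrest and apoptosis and also takes part in autophagy. Its level was 4.139, 3.673 and 2.291 FPKM in BME day 1. It was 4.063, 5.548 and 4.66 FPKM in BME day 5. It was 0.1132, 0.0617 and 0.06827 FPKM in BME + COL day 5. The BME groups met, with day 5 replicate a inside the day 1 range, and all BME + COL libraries were far below them. BME day 5 was above BME + COL by 4.75 ± 0.23 (limma adjusted p = 2.87e-07), and BME + COL was below BME day 1 by -4.23 ± 0.23 (adjusted p = 9.13e-07), and both calls held in every alternative. The change from day 1 to day 5 on BME did not pass (0.52 ± 0.23, adjusted p = 0.11) and was 0.27 without BME day 1 replicate c. The mean read depth over NM_001199105 in BME + COL was 0.65 to 1.22. The half-width of its 95% interval from Cufflinks reached 50.95% of the value there, against 10.96% at best on BME.

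The 2 Trp53inp1 transcripts share their start and differ by 38 bases (chr4:11095044-11095081), found in NM_001199105 alone. NM_021897 measured 1.83 ± 0.32 FPKM in BME day 1 and 3.14 ± 0.666 FPKM in BME day 5 (SD, n = 3 each), with all day 5 libraries above all day 1 libraries. In BME + COL it was at most 0.0001415 FPKM, with a mean read depth of 0.0 and Cufflinks intervals that reached up to 0.008193 FPKM. At such a depth the split of the gene between 2 transcripts that differ by 38 bases cannot be relied on. NM_001199105 measured 1.54 ± 0.802, 1.61 ± 0.442 and 0.081 ± 0.0281 FPKM in the 3 groups. The gene was therefore far lower in BME + COL, whichever transcript its few reads belong to. Only NM_021897 had day 5 values clear of day 1 on BME. The closest libraries were BME day 5 replicate a (2.374 FPKM) and BME day 1 replicate a (2.196 FPKM). Their Cufflinks intervals, 2.129 to 2.62 and 1.959 to 2.432 FPKM, overlapped. The split on BME depends on the same 38 bases, and the share of NM_021897 ran from 43.9% to 73.1% within BME day 1. With the gene represented by its most abundant transcript, the change from day 1 to day 5 was 0.74 (adjusted p = 0.0425).

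Markers of other cell types also moved between the groups. The summed level of 8 fibroblast markers was 20.09 to 27.98 FPKM in BME day 1, 26.47 to 36.13 in BME day 5 and 4.56 to 4.73 in BME + COL, in the same order as Gadd45a and Trp53inp1. Of these markers Pdgfra reached 22.64, Pdgfrb 9.062 and Col1a1 4.32 FPKM, and the other 5 (Col1a2, Col3a1, Dcn, Lum and Fap) stayed under 1 FPKM in all libraries. The haematopoietic sum was 6.81 to 9.93, 5.46 to 6.8 and 4.84 to 5.06 FPKM, with Ptprc under 1, and the endothelial sum was 14.46 to 17.41, 10.55 to 12.87 and 17.12 to 18.8 FPKM, nearly all from Flt1. The part of these markers in the results was not tested.

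**Figure D3:**
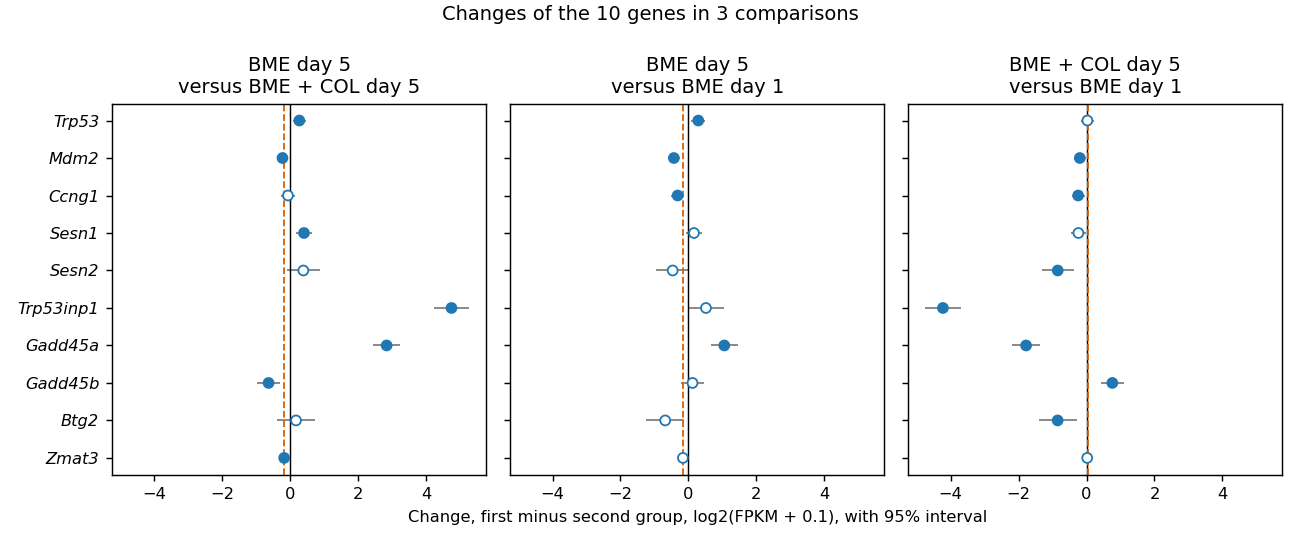
Change of each gene on the log2(FPKM + 0.1) scale in 3 comparisons, as first minus second group, with 95% intervals from limma; filled points passed the adjusted p of 0.05, open points did not, and the dashed line is the median of all 10497 tested genes. Gadd45a and Trp53inp1 lie farthest from 0 when BME + COL is compared, while the changes of the other 8 genes lie between -0.851 and 0.759.

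The sestrins restrain mTORC1 when nutrients are scarce and protect against oxidants. Sesn1 (chr10:41530380-41628242, + strand, 10 exons) measured 4.999, 4.568 and 5.994 FPKM in BME day 1. It measured 5.608, 6.035 and 5.709 FPKM in BME day 5. It measured 4.415, 4.553 and 4.093 FPKM in BME + COL. All BME day 5 libraries were above all BME + COL libraries (0.40 ± 0.10, limma adjusted p = 0.00488), and the BME groups overlapped (0.16 ± 0.10, adjusted p = 0.225). Every BME + COL library was below every BME day 1 library, by a narrow margin, and the difference did not pass (-0.24 ± 0.10, adjusted p = 0.0598).

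Sesn1 has 2 transcripts with separate starts. The longer, NM_001162908, starts at chr10:41530380 and the shorter, NM_001013370, at chr10:41607245. NM_001013370 measured 1.05 ± 0.294 FPKM in BME day 1, 2.27 ± 0.477 in BME day 5 and 1.28 ± 0.179 in BME + COL (SD, n = 3 each). It made up 12.6% to 26.8%, 35.1% to 46.8% and 27.0% to 33.1% of the gene in these groups, and its day 5 libraries on BME were above all others in level and in share. NM_001162908 measured 4.14 ± 0.961, 3.51 ± 0.262 and 3.08 ± 0.185 FPKM. For the most abundant transcript alone, the difference between the matrices was 0.18 (adjusted p = 0.275) and the change with time on BME was -0.21 (adjusted p = 0.282). Most of the difference in Sesn1 between the matrices thus lay in the transcript from the downstream start.

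Sesn2 (chr4:132048722-132066371, - strand, 10 exons) measured 5.542, 5.484 and 3.447 FPKM in BME day 1. It measured 4.297, 2.642 and 3.434 FPKM in BME day 5. It measured 2.751, 2.278 and 2.721 FPKM in BME + COL. BME + COL was below BME day 1 (-0.85 ± 0.21, limma adjusted p = 0.00604), with no overlap and in every alternative tried. The day 5 groups met at BME replicate b, which was below 2 of the BME + COL libraries, and did not differ by the test (0.39, 95% interval -0.092 to 0.862, adjusted p = 0.124). Without that replicate the difference was 0.56 (adjusted p = 0.0328). From day 1 to day 5 on BME the change was -0.46 ± 0.21 (adjusted p = 0.115), and -0.68 (adjusted p = 0.0346) without BME day 1 replicate c. The ratio of Sesn2 to Sesn1 was 1.11, 1.2 and 0.575 in BME day 1, 0.766, 0.438 and 0.601 in BME day 5, and 0.623, 0.5 and 0.665 in BME + COL. It did not separate any pair of groups, with exact two-sided permutation p-values of 1 between the matrices and 0.3 for each comparison with day 1 (adjusted p = 0.338 for the latter).

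**Figure D4:**
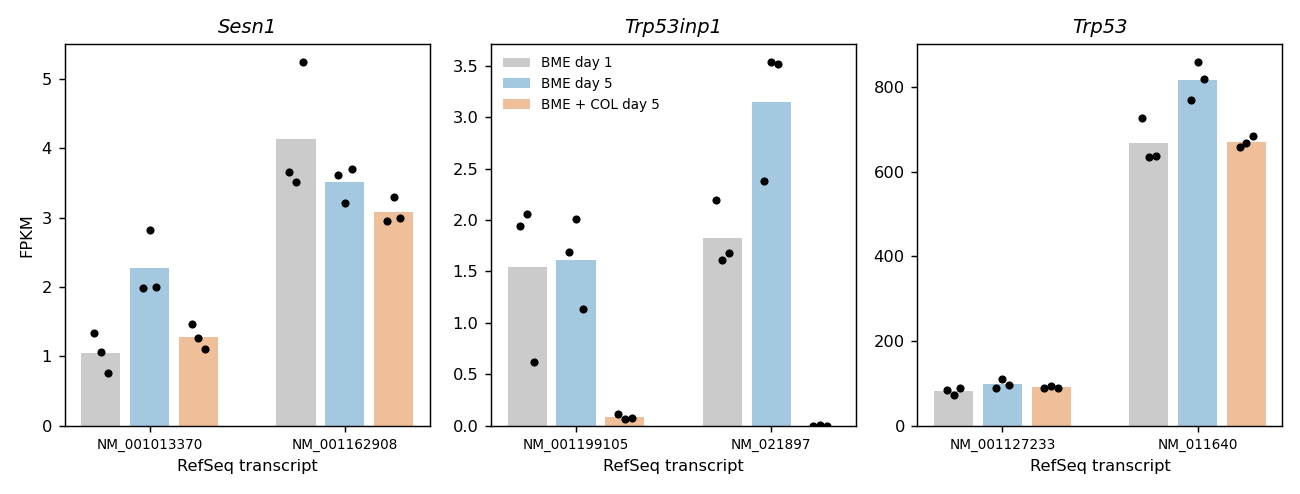
FPKM of each RefSeq transcript of Sesn1, Trp53inp1 and Trp53 (linear axes that start at 0), with bars at the mean of 3 libraries and a point for each library. NM_001013370 of Sesn1 and NM_021897 of Trp53inp1 are highest in BME day 5. NM_021897 is at most 0.0001415 FPKM in BME + COL, where reads are too few to split the Trp53inp1 transcripts reliably.

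Ccng1, Btg2 and Zmat3 act on MDM2, growth or mRNA. Ccng1 (chr11:40562054-40568788, - strand, 6 exons) encodes cyclin G1, which recruits a phosphatase to MDM2. It measured 15.99, 15.82 and 16.31 FPKM in BME day 1. It measured 13.99, 11.29 and 13.46 FPKM in BME day 5, and 13.31, 14.05 and 13.13 FPKM in BME + COL. Both day 5 groups were below all day 1 libraries, on BME by -0.32 ± 0.09 (limma adjusted p = 0.0244) and in BME + COL by -0.25 ± 0.09 (adjusted p = 0.0288). Leaving out any 1 of the day 1 libraries gave adjusted p-values of 0.0585 to 0.0731 on BME and 0.0594 to 0.0702 in BME + COL. In all, the call was lost in 6 alternatives on BME and in 7 in BME + COL. The median change of all genes was -0.154 and 0.033 in these 2 comparisons. The matrices did not differ at day 5 (-0.07, 95% interval -0.263 to 0.125, adjusted p = 0.484), but with TPM the difference was 0.28 (adjusted p = 0.000861) and with quantile normalization 0.15 (adjusted p = 0.015).

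Btg2 (chr1:135971442-135975732, - strand, 2 exons) encodes an antiproliferative protein that brings the deadenylase CCR4-NOT to mRNA. It measured 3.592, 3.767 and 7.623 FPKM in BME day 1, so that replicate c was far above a and b. It measured 2.737, 2.634 and 3.333 FPKM in BME day 5, and 2.403, 2.736 and 2.547 FPKM in BME + COL. All day 5 libraries were below all day 1 libraries. BME + COL was lower than BME day 1 (-0.85 ± 0.25, limma adjusted p = 0.0128), a call that was lost without the filter on low values (adjusted p = 0.0642). Without BME day 1 replicate c this difference was -0.51 (adjusted p = 0.00633). BME day 5 was at -0.68 ± 0.25 from day 1 and did not pass (adjusted p = 0.0601), nor without that replicate (-0.34, adjusted p = 0.0691), and the matrices did not differ at day 5 (0.17, 95% interval -0.388 to 0.724, adjusted p = 0.552).

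Zmat3 (chr3:32233716-32264587, - strand, 6 exons) encodes an RNA-binding zinc finger protein that regulates splicing. It measured 4.377, 4.236 and 4.623 FPKM in BME day 1, 3.926, 3.899 and 3.966 in BME day 5, and 4.466, 4.69 and 4.261 in BME + COL. The BME day 5 libraries were below all others. The difference from BME + COL passed (-0.18 ± 0.07, limma adjusted p = 0.04) but equalled the median of all genes, was lost in 9 alternatives, and was 0.16 (adjusted p = 0.15) with TPM. The change on BME from day 1 was -0.16 ± 0.07 (adjusted p = 0.102), and BME + COL did not differ from BME day 1 (0.02, 95% interval -0.14 to 0.178, adjusted p = 0.824). Zmat3 overlaps 4930429B21Rik on the opposite strand by 162 bases.

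Counted over the 10 genes, which all passed the filter, 4 were higher and 3 lower in BME than in BME + COL day 5. Of all 10497 tested genes 30.3% were called higher and 45.3% lower in that comparison. In BME day 5 against day 1, 2 were higher and 2 lower, beside 9.09% and 22.2% of all genes. In BME + COL day 5 against BME at day 1, 1 was higher and 6 lower, beside 34.2% and 31.8%. With 10 genes each count moves by steps of 10%, and nothing particular to the group is read from them. The 6 falls of the last comparison were 4 without genes shorter than 300 nt (where 3157 of 10417 genes were lower), 3 without the filter on low values and 4 to 7 with 1 library left out. The median change of the 10 genes was 0.22, -0.02 and -0.24 in the 3 comparisons, and that of all tested genes -0.18, -0.15 and 0.03. The comparisons share libraries, so their counts are not separate evidence. Without BME day 1 replicate c and BME day 5 replicate b, a choice made after seeing the data, the counts were 5 higher and 3 lower, 3 and 3, and 1 and 6.

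The level given to a change between the matrices depends on the scale. With TPM the median of all genes moved from -0.182 to 0.159 between the matrices at day 5, and the split of calls from 3179 higher and 4756 lower to 4858 and 3327. From BME day 1 to BME + COL day 5 it moved from 0.033 to -0.188, and the split from 3588 and 3343 to 2638 and 4870. From day 1 to day 5 on BME the split was 954 and 2327 in FPKM, 1534 and 2236 with TPM and 1903 and 2050 with quantile normalization. Relative to the median of all genes at day 5, BME was above BME + COL by 4.93 for Trp53inp1, 3.02 for Gadd45a, 0.58 for Sesn1 and 0.45 for Trp53, Gadd45b was at -0.46, and Mdm2 (-0.05) and Zmat3 (0.00) were at the median. Under TPM 6 of the 10 genes were called higher in BME than in BME + COL and 0 lower.

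The wider p53 network had genes on both sides. Of 43 other p53 targets in lists by role, 34 were tested: at day 5, 10 were higher in BME than in BME + COL, 16 were lower and 8 did not pass, with a median of -0.26 beside -0.18 for all genes, and the shares are close to the 30.3% higher and 45.3% lower of all genes. With TPM the counts were 15 higher and 13 lower, beside 4858 and 3327 of all 10497 tested genes. From day 1 to day 5 on BME 5 rose, 6 fell and 23 did not pass, beside 9.09% higher and 22.2% lower of all genes. From BME day 1 to BME + COL day 5 15 rose, 10 fell and 9 did not pass, against 9 and 12 with TPM. Of all tested genes 34.2% rose and 31.8% fell there, and with TPM 2638 and 4870 of 10497 did. Nothing particular to these targets is read from the counts.

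Among the arrest genes, Cdkn1a, the CDK inhibitor p21, was highest at day 1 (28.53 ± 2.71 FPKM, SD, n = 3), intermediate in BME day 5 (17.23 ± 3.0) and lowest in BME + COL (6.593 ± 0.308). It was below BME day 1 in BME day 5 (-0.73, limma adjusted p = 0.00355) and in BME + COL day 5 (-2.09, adjusted p = 1.2e-06), where time and matrix change together, and was higher in BME than in BME + COL day 5 (1.36, adjusted p = 8.38e-06). Thus Gadd45a rose and Cdkn1a fell on BME between day 1 and day 5. The other 3 tested arrest genes were lower in BME than in BME + COL, among them Gtse1, a mitotic protein that restrains p53 (-2.53, adjusted p = 9.33e-05), and Plk2, a kinase of centriole duplication (-1.58, adjusted p = 0.00308). Gtse1 and Plk2 had their lowest value in BME day 5 replicate b, the library whose median gene was low. Of all tested genes 45.3% were lower in BME than in BME + COL day 5.

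Of 11 tested apoptosis genes, 3 were higher in BME than in BME + COL, 3 lower and 5 did not pass. Beside this count and those of the lists below stand 30.3% higher and 45.3% lower of all tested genes. The lists are short, and nothing particular to them is read from the counts. Perp, a membrane protein of cell junctions and apoptosis, measured 59.79 ± 9.24 FPKM in BME day 1, 166.1 ± 16.2 in BME day 5 and 33.16 ± 1.16 in BME + COL, and differed in all 3 comparisons (limma adjusted p = 3.8e-07 between the matrices). Tnfrsf10b, a death receptor, was also higher (0.66), and Aen (-1.21) and Siva1 (-1.10) were lower. Of 7 repair and nucleotide genes, 3 were higher, with Ddb2 (0.96) and Xpc (0.71) of nucleotide excision repair, and 3 were lower, with the polymerase Polh (-1.06) and Pcna (-0.85), the sliding clamp of replication. Of 9 metabolic and redox genes, 3 were higher, with Ephx1 (2.46), an epoxide hydrolase, and Lpin1 (1.47), a phosphatidate phosphatase, and 4 were lower, with Gls2 (-1.24), a glutaminase, and Tigar (-0.77), a regulator of glycolysis. All 3 tested feedback genes were lower, with Ppm1d (-0.57), a phosphatase, and Cop1 (-0.46), a ubiquitin ligase that acts on p53, as examples.

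Of 22 regulators of p53, 3 were higher in BME than in BME + COL day 5, 10 lower and 9 did not pass, beside 30.3% and 45.3% of all genes. The balance depended on the scale, with 8 higher and 7 lower with TPM and 6 and 8 with quantile normalization. The split of all 10497 tested genes moved too, to 4858 higher and 3327 lower with TPM and 3790 and 4239 with quantile normalization. From day 1 to day 5 on BME 1 rose and 4 fell, beside 9.09% and 22.2% of all genes. From BME day 1 to BME + COL day 5 6 rose and 4 fell, against 5 and 9 with TPM. Beside these stand 34.2% and 31.8% of all genes, and 2638 and 4870 of 10497 with TPM. Nothing particular to the regulators is read from these counts. The kinase Prkdc, which senses DNA breaks, was higher (0.93, limma adjusted p = 0.000106), whereas the checkpoint kinase Chek1 (-1.79, adjusted p = 0.000372) and Hipk2 (-1.04, adjusted p = 0.00157), which phosphorylate targets that include p53, were lower. A further pair of regulators was looked at after their values were seen. Cdkn2a, whose locus encodes p16 and the MDM2 inhibitor p19ARF, measured 95.47 ± 8.47, 92.61 ± 7.64 and 93.59 ± 2.49 FPKM in the 3 groups, with no call, and Mdm4, the relative of Mdm2, 7.912 ± 0.936, 6.696 ± 1.86 and 7.596 ± 1.0 FPKM, with no call.

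Some relatives of the 10 genes differed widely between the matrices. Of 7 listed, 5 were tested: 4 were higher in BME than in BME + COL day 5 and 0 lower, and all 5 were lower in BME + COL than in BME day 1. Of all tested genes 30.3% were higher and 45.3% lower in the first comparison, and 31.8% were lower in the second. With 5 genes, listed with earlier results known, nothing particular to the relatives is read from these counts. Trp53inp2, an autophagy protein related to Trp53inp1, measured 11.11 ± 0.453 FPKM in BME day 1, 13.94 ± 2.95 in BME day 5 and 1.437 ± 0.119 in BME + COL (9.024-fold between the matrices at day 5, limma adjusted p = 1.56e-07). Ccng2, cyclin G2, measured 12.65 ± 0.919, 13.41 ± 2.36 and 1.961 ± 0.16 FPKM (6.503-fold, adjusted p = 2.22e-07), unlike Ccng1, which did not differ between the matrices by the test. The difference between the relatives was not tested. Btg1 was higher by 1.60 (adjusted p = 9.65e-07) and Sesn3 by 1.07 (adjusted p = 2.53e-06), and Gadd45g did not pass (0.24, adjusted p = 0.37); these 3 were named after their values were seen.

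**Figure D5:**
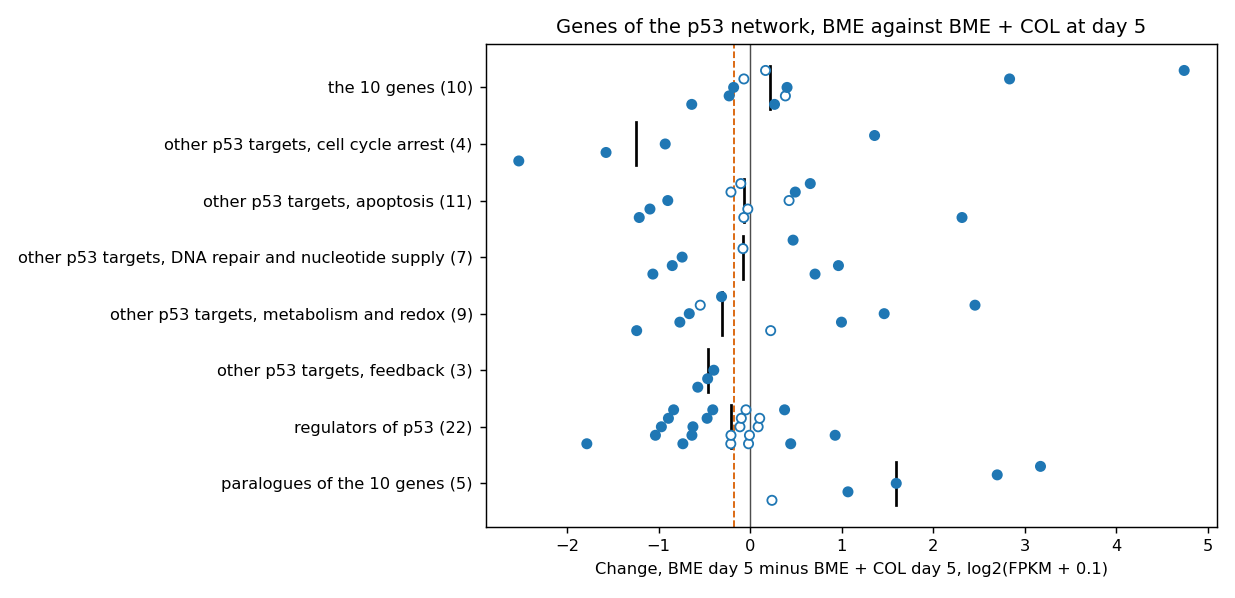
Change between BME and BME + COL at day 5 on the log2(FPKM + 0.1) scale for each tested gene of the p53 lists, with the number tested in brackets; filled points passed the adjusted p of 0.05, black lines are list medians, and the dashed line is the median of all genes. Each list of other targets by role except feedback has called genes on both sides of 0, and the relatives of the 10 genes have a median of 1.597.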

How the data were processed

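Total RNA of 9 cultures was sequenced by the authors with a directional kit. Per the submitters' processing notes, the tools were TopHat2 2.0.8, Trimmomatic 0.30, Partek and CASAVA 1.8.4, and the builds mm9 and NCBIM37. The deposited values used here are FPKM for 30563 RefSeq transcripts, with their 95% intervals, written by Cufflinks for each library (version not given in the sources used here). The score column of the deposited files was not used. FPKM depends on the composition of each library, and read counts were not used here.

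Transcript FPKM were added up for each gene symbol. The 10497 genes that averaged 1 FPKM or more were fitted as log2(FPKM + 0.1) with limma 3.58.1 in R 4.3.3, with an intensity trend and 3 group means (6 residual degrees of freedom). P-values are two-sided and adjusted by Benjamini and Hochberg over all tested genes in each comparison, with a threshold of 0.05. Ratios used exact permutation tests. Motifs were searched in the NCBIM37 genome, with GENCODE M1 for annotation. Only the limma fit was tested on simulated data, in which a far smaller share of genes changed than here. The scaling of FPKM, the ratios and the motif search were not tested in that way. The 10 genes and all lists were chosen with earlier results of these data known. Named genes are the 10, up to 2 called rises and 2 called falls of each p53 list with the largest change in a comparison, and the 5 genes most like Trp53. Levels between genes are compared per length. Alternatives covered pseudocount, filter, scaling (TPM, median-ratio, quantile), short genes, transcript choice, fitted libraries, intensity trend, a replicate block and each library left out.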

Additional observations from a re-analysis of the deposited data

How the results depend on the processing

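For the 10 genes and the named genes of the lists, 1971 changes were recomputed under an alternative, of which 1825 kept direction and side of the threshold, 117 lost their call, 13 gained one and 16 changed sign. The number of the 10 genes lower on BME than on BME + COL at day 5 (3) was 0 with TPM, 1 with median-ratio scaling, 1 with quantile normalization, 1 without genes shorter than 300 nt, and 1 to 3 with 1 library left out. On BME from day 1 to day 5, the number that rose (2) was 1 without the filter, 1 with only the 6 libraries compared, 1 with the replicate block and 1 to 2 with 1 library left out. The number that fell (2) was 1 without the filter, 1 without short genes, 1 with only the 6 libraries and 1 to 2 with 1 library left out. The number lower on BME + COL than on BME at day 1 (6) was 3 without the filter and 3 with a minimum mean of 5 FPKM, which leaves 6 of the 10 genes to test. For the filter and the scalings the cause was not tested.

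Changes of sign between the matrices at day 5 were Mdm2, 0.114 with TPM and 0.032 with quantile normalization; Ccng1, 0.275, 0.148 and, with median-ratio scaling, 0.024, and also 0.024 with BME day 1 c and BME day 5 b left out; and Zmat3, 0.159 with TPM. For Ccng1 the values with 1 library left out ranged from -0.129 to 0.024. From day 1 to day 5 on BME, Sesn1 was -0.209 by its most abundant transcript and Gadd45b ranged from -0.055 to 0.234. Between BME + COL at day 5 and BME at day 1, Trp53 was -0.2 with TPM and -0.368 with quantile normalization (adjusted p = 0.035) and ranged from -0.015 to 0.084, and Zmat3 was -0.204 with TPM and ranged from -0.015 to 0.053. The log2 ratio of Sesn2 to Sesn1 between the matrices (-0.013) was 0.208 with the most abundant transcripts and ranged from -0.206 to 0.198. Where leaving out a library left 2 in a group, the spread was pooled over the groups.

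Deviations from the group means were correlated over genes between libraries of different groups. The correlations were -0.23 to 0.096 for the same letter and -0.177 to 0.183 for different letters. Deviations within a group are bound to each other, so these values cannot decide whether the letters pair the cultures. No pairing was used in the main fit. With the replicate block the 10 genes gave 4 higher and 2 lower between the matrices, 1 and 3 with time on BME, and 1 and 5 between BME + COL and BME day 1. Depth limits Trp53inp1 on BME + COL most, where the half-width of the interval of NM_001199105 reached 50.95% of the value.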
